A study of Mus musculus with 3 samples.

Results

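Among the primitive streak regulators examined, T had the largest fitted difference in mouse embryonic stem (ES) cells expressing a transgenic H2A.Z with C-terminal lysines replaced. In the 1 library of these cells, T was 7.57 times as abundant as in cells with a wild-type H2A.Z transgene. The edgeR test called this rise and DESeq2 did not. Its T-box relative Eomes was not called, and whether T and Eomes differ in their response was not tested. The genes examined were 8 regulators of the primitive streak and early mesoderm, chosen by name: T, Mixl1, Eomes, Evx1, Gsc, Mesp1, Mef2c and Lhx1. Of these, 5 had a row among the 15311 genes of the deposited table and 4 had enough reads for a test. Evx1, Gsc and Mesp1 were not among the rows. No count in the table is below 1, so a gene without a read in any 1 library would not be listed, and no value is given for these 3 genes.

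The primitive streak is the site in the gastrulating embryo where epiblast cells leave the epithelium to form mesoderm and endoderm. Nodal, Wnt and BMP signals induce it, and T-box and homeobox transcription factors carry the response. In ES cells these genes are low, and many have bivalent promoters, where an activating histone mark and a Polycomb mark coexist. The series asks, by its title, how ubiquitylation of H2A.Z, a histone variant found at such promoters, bears on that poised state.

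Polyadenylated RNA was sequenced from 1 library of K3R3 cells and 2 libraries of wild-type (WT) cells. K3R3 cells expressed H2A.Z with lysines 119, 120 and 123 replaced by arginine, and WT cells expressed H2A.Z with these lysines intact. In both, the protein was fused to yellow fluorescent protein and came from a lentiviral transgene under a CMV promoter switched on by 1 µg/ml doxycycline, and positive cells were sorted. Both also carried a blasticidin-selected lentiviral hairpin that targets the cells' own H2A.Z mRNA outside its coding sequence. The labels give the strain as V6.5 (129SvJaexC57BL/6), whereas the protocol describes infection of KH2 ES cells. Cells grew with serum and LIF on feeder fibroblasts, which were left out for the last passage. The labels do not say which hairpin was used, whether each line was a clone, or whether the WT libraries came from separate cultures, so the spread between them may be technical.

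The table held 24718223 counts for K3R3 and 21614693 and 25426228 for WT replicates 1 and 2. H2afz, the targeted gene, stood at 222 CPM (counts scaled to library size) in K3R3 and 225 ± 8.89 CPM in WT (SD, n = 2). Because the transgene also yields H2afz reads and the hairpin was in both groups, this checks neither the knockdown nor the labels, and every direction below rests on how the count columns are named. All 12 listed ES cell markers were in the table, with a summed level of 4788 CPM in K3R3 and 7295 and 6357 CPM in the WT libraries. Over all 13829 genes tested by edgeR's quasi-likelihood test, 280 were called higher and 75 lower in K3R3 (Benjamini-Hochberg adjusted p under 0.05). With library totals implied by the deposited RPKM values in place of TMM scaling, 466 were called higher and 50 lower, and the median of all tested genes moved to 0.11 log2 units, against -0.01 with TMM.

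Short stretches of promoter sequence are shown because the class of these genes is defined by promoter marks. They are the 30 bases just before the annotated start of the 3 members that the deposited table classes as bivalent and that have a promoter in RefSeq's table (build GRCm38.p6), 5′ to 3′ on the gene's strand, with CpG dinucleotides in capitals.
T (chr17:8434393-8434422, plus strand): gaatgtgcagggacccaggtgtaatctttg
Eomes (chr9:118478159-118478188, plus strand): tatataagcagccaaccacCGctcacaagt
Lhx1 (chr11:84525535-84525564, minus strand): ttaaggCGagggggcttccagggctcagcc
Over the whole promoter window, 250 bases before to 50 bases after the start, T had 17 CpGs, Eomes 10 and Lhx1 31. The median was 21 over 1743 promoters of genes that the table classes as bivalent and 7 over all 32851 promoters. Mef2c, which has no active or bivalent code in the table, had 3 listed promoters with 1, 10 and 4 CpGs. T and Eomes were thus CpG-poorer here than the median bivalent gene, and Lhx1 was richer.

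A search of these windows on both strands used the TCF/LEF motif CTTTGAT, the T-box half-site GGTGTGA, the FOXH1 motif AATNCACA, the SMAD motif CAGACAG and the paired-class homeodomain palindrome, TAAT and ATTA separated by 3 bases. The only match in T, Eomes, Mef2c or Lhx1 was a homeodomain site in Eomes, whose first base lies 111 bases before the start. It is shown with its flanks and the site in capitals.
Eomes (chr9:118478069-118478097, plus strand): ataaatactTAATTGAATTAgtgtcacct
Mixl1 and Gsc belong to the paired class of homeodomain factors. That site occurred in 0.487% of all promoters, the TCF/LEF motif in 3.73%, the T-box half-site in 3.98%, the FOXH1 motif in 3.60% and the SMAD motif in 7.73%. A match is a description of letters and shows no binding.

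T encodes brachyury, the T-box factor that marks the streak and is needed to form posterior mesoderm. It had 129 counts in K3R3, against 19 and 11 in WT replicates 1 and 2. These correspond to 4.96 CPM in K3R3 and 0.673 ± 0.326 CPM in WT (SD, n = 2). The K3R3 value lay far above both WT libraries, and its counting interval (4.14 to 5.89 CPM) did not reach the upper limits of theirs, 1.41 and 0.793 CPM. The fitted difference, K3R3 minus WT, was 2.89 log2 units (SE 0.60; edgeR adjusted p = 0.000420), so T rose. The ratio of K3R3 to pooled WT was 7.57 with a counting interval of 5.06 to 11.7, and it was 5.48 against replicate 1 and 11.2 against replicate 2. DESeq2 gave nearly the same difference and did not call T (adjusted p = 0.161). In the authors' deposited table T had an unadjusted p of 0.000414, which became 0.0822 after Benjamini-Hochberg adjustment over the table. In bulk RNA, more cells that express a gene and more RNA per cell cannot be told apart.

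Mixl1, a paired-class homeobox gene of the streak that acts in mesoderm and endoderm formation, had 51 counts in K3R3, against 12 and 6 in the WT replicates. Its level was 1.96 CPM in K3R3 and 0.406 ± 0.233 CPM in WT (SD, n = 2). The K3R3 value lay above both WT libraries. The fitted difference was 2.28 log2 units (SE 0.81) and did not pass over all genes (edgeR adjusted p = 0.113). The ratio to pooled WT was 4.99 with a counting interval of 2.87 to 9.07, and it was 3.43 against replicate 1 and 8.11 against replicate 2. Mixl1 reached the minimum mean of 0.5 CPM only through its K3R3 value, so its low WT level is no result.

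Mef2c encodes a MADS-box factor of cardiac and skeletal muscle, vessels and neurons, and it comes on later than the streak genes. It had 87 counts in K3R3, against 21 and 22 in the WT replicates. The level was 3.34 CPM in K3R3 and 0.943 ± 0.0797 CPM in WT (SD, n = 2). The WT libraries lay close together and K3R3 lay above both. The fitted difference of 1.82 log2 units (SE 0.64) did not pass over all genes (edgeR adjusted p = 0.106), and the ratio was 3.56 with a counting interval of 2.45 to 5.26.

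Eomes encodes the T-box factor that specifies definitive endoderm and cardiac mesoderm and also serves the trophoblast. It had 134 counts in K3R3, against 181 and 140 in the WT replicates, which is 5.15 CPM in K3R3 and 7.13 ± 2.10 CPM in WT (SD, n = 2). K3R3 lay below both WT libraries but close to replicate 2, and the counting intervals of K3R3 (4.31 to 6.10 CPM) and replicate 2 (4.74 to 6.66 CPM) overlapped. The fitted difference was -0.47 log2 units (SE 0.42; edgeR adjusted p = 0.881). It was -0.74 against replicate 1 and -0.13 against replicate 2, while replicate 2 stood -0.61 from replicate 1. The sum of trophoblast markers also differed within WT: of 12 listed, 9 were in the table, with 111 CPM in K3R3 and 137 and 65.7 CPM in the WT replicates. Most of that gap lay in the keratin genes Krt8 (24.2 and 6.08 CPM in WT replicates 1 and 2) and Krt18 (44.6 and 8.78 CPM). Tfap2c, Krt7, Ascl2 and Hand1 were also higher in replicate 1. Cdx2 was about level (0.476 and 0.443 CPM), and Gata3 and Esx1 were higher in replicate 2. Elf5, Tpbpa and Prl3d1, which define the lineage, were not among the rows, and Esx1 was called higher in K3R3. The part of these markers in the Eomes values was not tested. The annotated body of Eomes overlaps an antisense gene, Gm33460, in GENCODE M21. The libraries were strand-specific but no source used here says whether counting used strand, so reads of the pair may not have been told apart.

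Lhx1, a LIM homeobox gene of the streak's derivatives, the node and the anterior visceral endoderm, was close to silent in all 3 libraries. It had 4 counts in K3R3, against 1 and 2 in the WT replicates. The ratio was 2.35 with a counting interval of 0.397 to 16.0, so no difference was detectable at this depth, and Lhx1 was not tested.

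**Figure D1:**
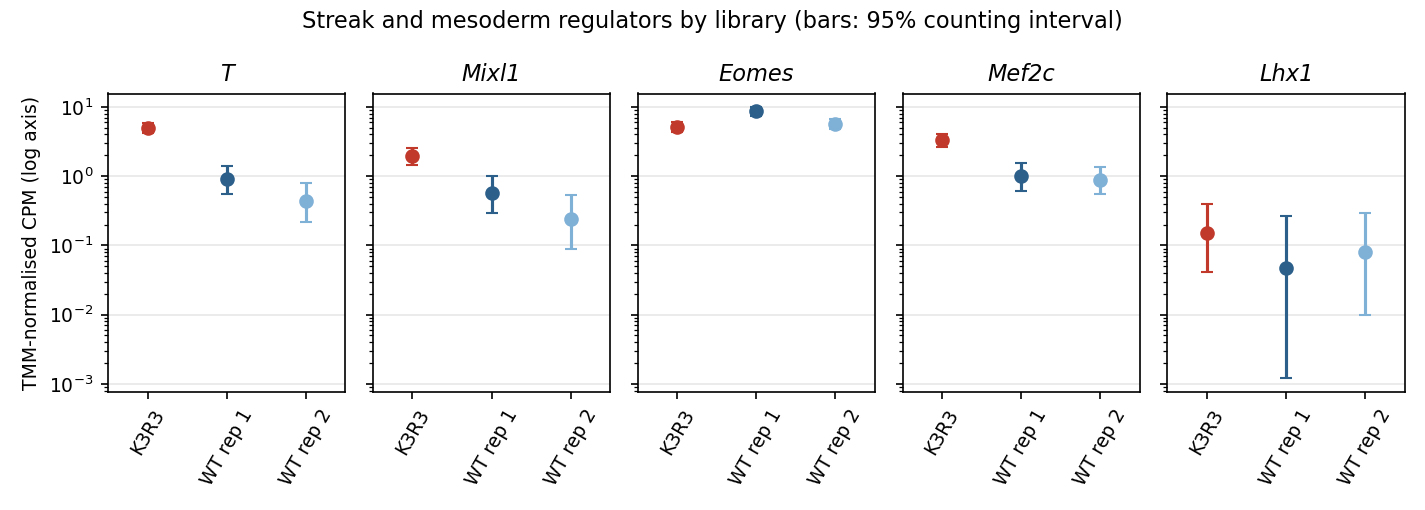
TMM-normalised CPM on a log axis of the 5 regulators in the K3R3 library and the 2 wild-type (WT) libraries, 1 point per library, with bars for the 95% counting interval. K3R3 stands above both WT libraries for T, Mixl1 and Mef2c with separate intervals, below both for Eomes, and the intervals of Lhx1 overlap in all 3 libraries.

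Of the 5 members in the table, 4 stood above both WT libraries in K3R3 (T, Mixl1, Mef2c and Lhx1) and Eomes stood below both. Of all genes listed, 35.3% lay above both WT libraries and 33.2% below both, and of bivalent genes 72.6% lay above both, so a share this high is common among bivalent genes. Of the 4 members tested, 1 rose and 0 fell, beside 2.02% of all tested genes called higher and 0.542% called lower. At an unadjusted p under 0.05, edgeR had 3 members higher (T, Mixl1 and Mef2c) and 0 lower, beside 7.9% of all tested genes called higher by that rule. Mixl1 was tested only through its K3R3 value, so its place among the 3 is no result. DESeq2 called 0 members, beside 0.427% of genes called in either direction, and had 1 at an unadjusted p under 0.05, beside 5.84% of genes. The likelihood ratio test of edgeR called 2 members, T and Mixl1.

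Per gene length the order of the regulators in K3R3 was not that in WT. In K3R3, T was the highest at 1.71 RPKM (reads scaled to gene length and library size, as deposited), followed by Eomes at 0.979, Mixl1 at 0.605, Mef2c at 0.367 and Lhx1 at 0.0395 RPKM. In WT, Eomes was the highest at 1.24 ± 0.354 RPKM (SD, n = 2), and T followed at 0.213 ± 0.101 RPKM. Mixl1 at 0.115 ± 0.0647 and Mef2c at 0.0951 ± 0.00706 RPKM came next and exchanged places between the WT libraries, so these neighbours did not differ beyond their spread. T and Mixl1 differed in WT by less than the SD of T. Lhx1 stood last in WT at 0.0151 ± 0.00566 RPKM.

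**Figure D2:**
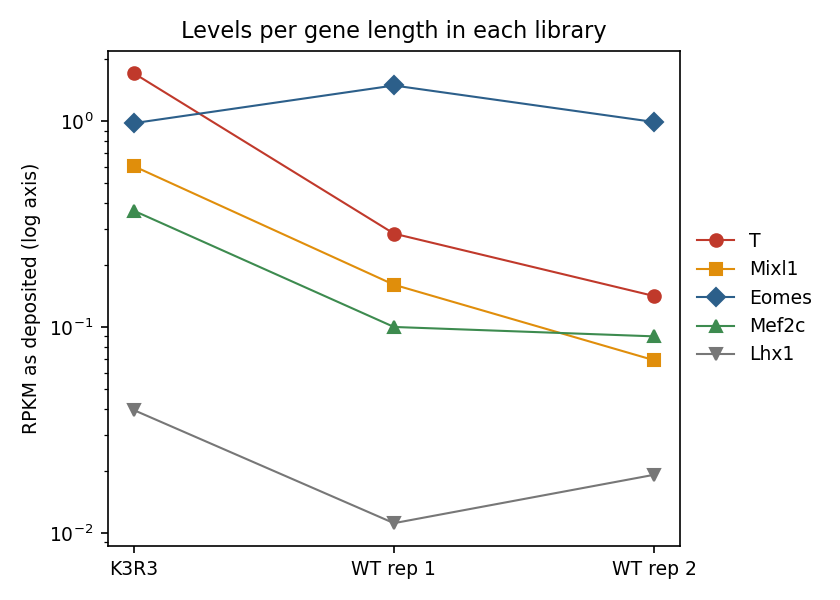
RPKM as deposited, on a log axis, of the 5 regulators in the K3R3 library and WT replicates 1 and 2, with lines joining the values of 1 gene. T stands highest in K3R3 at 1.71 RPKM, and Eomes stands highest in both WT libraries.

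T, Mixl1, Eomes and Lhx1 carry the bivalent code. The median fitted difference of the 4 tested members, Mef2c among them, was 2.05 log2 units and 1.82 without Mixl1, which passed the filter only through K3R3. It was 0.65 over 1671 bivalent genes and -0.01 over all tested genes. Bivalent genes of low level had a higher median, 1.05 at a mean of 0.5 to 2 CPM and 0.67 at 2 to 10 CPM. The filter and these ranges use means that include K3R3. Genes that enter only through a high K3R3 value can therefore raise these medians, so their rise at low level is no result. Mean levels over the 3 libraries were 0.924 CPM for Mixl1, 1.74 for Mef2c, 2.10 for T and 6.47 for Eomes. Of the bivalent genes 10.5% were called higher. Among all 1671 bivalent genes tested, T ranked 40 and Eomes 1593 from the top, so these 2 stood near opposite ends of their class. Mixl1 ranked 90, but it was ranked only because its K3R3 value let it pass the filter, so that place is no result. Whether T and Eomes differ in their response was not tested.

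**Figure D3:**
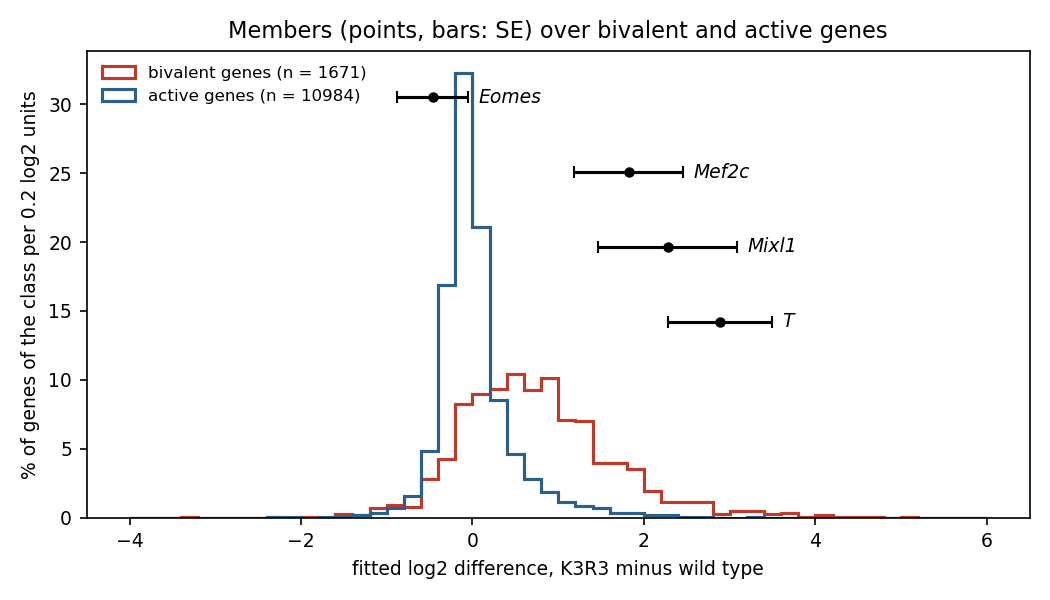
Histograms of the fitted log2 difference (K3R3 minus wild type) of 1671 bivalent and 10984 active genes, as a percentage of each class per bin, with the 4 tested regulators as points and their SE as bars (their height has no meaning). T lies in the right tail of the bivalent genes, as does Mixl1, which passed the filter only through K3R3. Mef2c, which has neither code, also lies to the right, and Eomes lies left of 0.

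Among the signals that induce the streak, few genes were called, but over all tested genes only 2.02% were called higher and 0.542% lower. Of 15 ligands and their convertases listed, 12 were tested, 0 rose and 0 fell, and the median was -0.10 (0.02 with the implied totals). At an unadjusted p under 0.05, edgeR had 2 higher and 1 lower, beside 7.9% of all tested genes higher. DESeq2 called 0 ligands and had 1 by that rule, beside 5.84% of genes in either direction. Wnt3, the ligand required to start the streak, had 36 counts in K3R3, against 4 and 5 in WT, a difference of 2.79 log2 units (edgeR adjusted p = 0.0866). Like Mixl1, it passed the filter only through K3R3. Nodal, the ligand that sustains the streak, stood at 15.6 CPM in K3R3, against 29.3 and 17.6 CPM in the WT replicates (-0.58). Bmp7 (1.34) and Wnt8a (1.21, which also passed the filter only through K3R3) completed the largest differences of the list and were not called.

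Of 22 receptors and transducers, all tested, 1 rose and 0 fell, beside 2.02% of all tested genes called higher and 0.542% called lower. At an unadjusted p under 0.05, edgeR had 2 higher and 3 lower, beside 7.9% of all tested genes higher. DESeq2 had 2 by that rule, beside 5.84% of genes in either direction. The gene that rose, Lef1, is the only 1 of the 22 that is bivalent, and 10.5% of bivalent genes were called higher. Lef1, a nuclear partner of β-catenin, had 205 counts in K3R3, against 64 and 33 in the WT replicates. It rose by 1.86 log2 units (SE 0.46; edgeR adjusted p = 0.00445), with 1.36 and 2.53 against replicates 1 and 2 alone, and DESeq2 did not call it (adjusted p = 0.392). Tcf7l1, which represses Wnt targets in ES cells, stood at 12.3 CPM in K3R3, against 20.7 and 21.8 CPM in WT (-0.79, not called), Tcf7l2 differed by -0.64 and the Wnt receptor gene Fzd7 by -0.49. The median of the list was -0.10 and turned to 0.02 with the implied totals.

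Inhibitors of these signals had 14 of 17 members tested, of which 0 rose and 0 fell, beside 2.02% and 0.542% of all tested genes. At an unadjusted p under 0.05, edgeR and DESeq2 each had 0 inhibitors. By that rule edgeR had 7.9% of all tested genes higher and DESeq2 5.84% in either direction. The median of the inhibitors was -0.24 with TMM and -0.11 with the implied totals. Axin2, the feedback inhibitor that most Wnt-responding cells induce, stood at 16.6 CPM in K3R3, against 11.4 and 10.5 CPM in the WT replicates (0.60, not called). The secreted Wnt inhibitor gene Dkk1 differed by -0.82, Dkk3 by 0.57 and Smad7, an inhibitor of Nodal and BMP signalling, by -0.47, none of them called. Nog, named after its values were seen, averaged less than 0.5 CPM and was not tested. It had 28 counts in K3R3, against 1 and 5 in WT replicates 1 and 2 (3.65 and 2.20 log2 units).

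Of 41 other genes of the streak and of early mesoderm listed, 31 were in the table and 27 tested, 24 of them bivalent. Of these 27, 2 rose and 0 fell, beside 10.5% of bivalent genes called higher. At an unadjusted p under 0.05, edgeR had 9 higher and 1 lower, beside 7.9% of all tested genes higher by that rule. The share of bivalent genes by that rule was not computed, so the 9 are no result about the list. Of the 27, 22 lay above 0, beside 81.6% of all bivalent genes. Their median was 0.88, beside the bivalent median of 0.65, which was 1.05 for bivalent genes averaging 0.5 to 2 CPM. The list and the bivalent genes both passed a filter on means that include K3R3, which can raise these medians and shares. Sp5, a Wnt target that encodes a zinc finger factor, had 123 counts in K3R3, against 20 in each WT library, and rose by 2.42 log2 units (SE 0.59; edgeR adjusted p = 0.00369). Lmo2, a cofactor of blood and vessel formation, had 168 counts in K3R3, against 22 and 39 in WT, and rose by 2.29 (SE 0.51; edgeR adjusted p = 0.00112). Cdx4, a posterior homeobox gene, had 74 counts in K3R3, against 4 and 34 in WT, so its WT libraries differed widely and its 1.83 was not called. Cdx2 (1.66), which passed the filter only through K3R3, was not called either. With the implied totals 4 of the list were called higher, beside 466 of all 13829 tested genes. DESeq2 called 0 and had 4 at an unadjusted p under 0.05, beside 5.84% of genes in either direction.

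**Figure D4:**
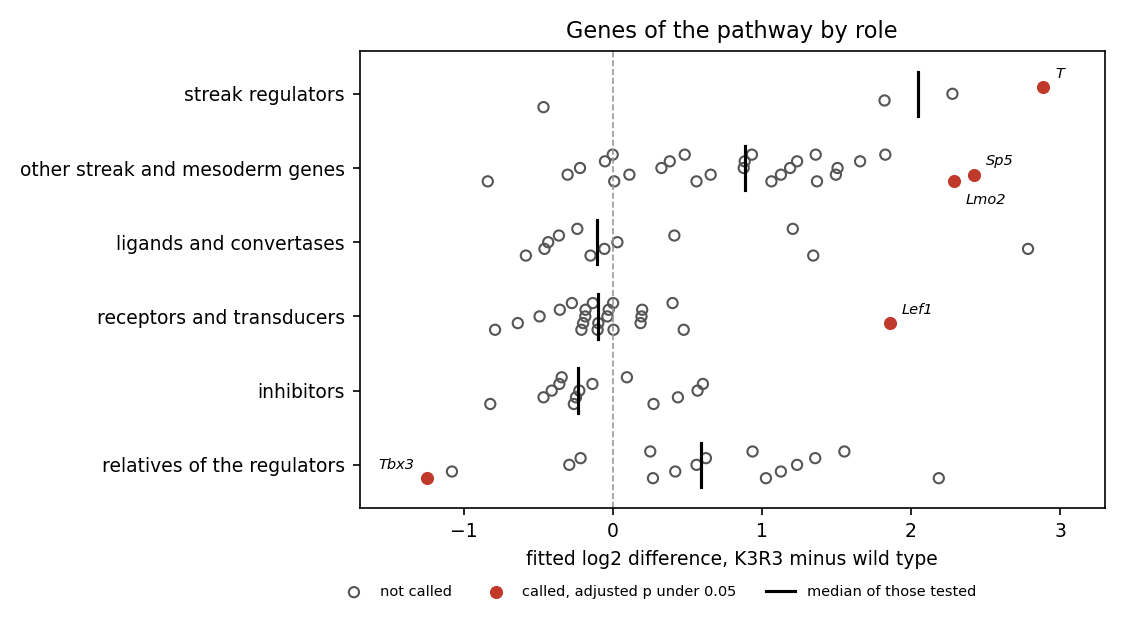
Fitted log2 difference (K3R3 minus wild type) of each tested gene, 1 row per role, with filled points for genes called by edgeR's quasi-likelihood test and a bar for the median of those tested. T, Sp5, Lmo2 and Lef1 are called higher and Tbx3 lower, and the medians of ligands, receptors and inhibitors lie near 0 or below it (-0.10, -0.10 and -0.24; 0.02, 0.02 and -0.11 with the implied totals).

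Relatives of the regulators, from the T-box, LIM homeobox, Mef2 and Mesp families, included 16 tested genes of 32 listed, of which 0 rose and 1 fell. Of all tested genes 2.02% were called higher and 0.542% lower. Of the 16 relatives 12 are bivalent, and 10.5% of bivalent genes were called higher. Tbx3, a T-box gene that sustains ES cell self-renewal, stood at 62.8 CPM in K3R3, against 165 and 133 CPM in WT, and fell by 1.25 log2 units (SE 0.22; edgeR adjusted p = 1.75e-05). DESeq2 called this fall as well and called no relative higher. At an unadjusted p under 0.05, edgeR had 3 relatives higher and 1 lower, beside 7.9% of all tested genes higher. The share of bivalent genes by that rule was not computed, so the 3 are no result about the relatives. Among LIM homeobox genes, Lmx1a had 64 counts in K3R3, against 7 and 18 in WT (2.19, not called), and Lhx9 (1.55) and Lhx6 (1.36) were not called. Lhx9 passed the filter only through K3R3. The other Mef2 genes, named after their values were seen, were not called, with differences of 0.25 for Mef2a, -0.29 for Mef2d and -1.08 for Mef2b. With the implied totals the relatives had 2 higher and 1 lower call, beside 466 higher and 50 lower over all 13829 tested genes.

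The tested genes nearest to T in level over the 3 libraries, by Euclidean distance of log2 CPM, were Jakmip2 (0.38), Zcchc12 (0.62) and Prom2 (0.67). Jakmip2 had 107 counts in K3R3, against 17 and 13 in the WT replicates. All 3 were classed as active. Being near T in these libraries fixes their direction, so it is no result. In chromosome order (GENCODE M21), the nearest protein-coding genes of the table on either side of the 5 members gave 10 neighbours, a choice made after T's values were seen. Of the 9 tested, 1 was called, beside 2.02% of all tested genes and 10.5% of bivalent genes called higher. It was Pde10a, a bivalent phosphodiesterase gene 82.9 kb from T. Pde10a had 155 counts in K3R3, against 37 and 39 in WT, and rose by 1.84 log2 units (edgeR adjusted p = 0.0165; DESeq2 adjusted p = 0.438). T2, on the other side of T, had 1 count in K3R3, against 1 and 3 in WT. The other 8 tested neighbours differed by -0.49 to 0.14.

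Markers of cell types also moved, and their part in the values of T, Mixl1 and Mef2c was not tested. Shares over all genes stand beside the counts below. Of all tested genes edgeR called 2.02% higher and 0.542% lower, and had 7.9% higher at an unadjusted p under 0.05. DESeq2 called 0.427% in either direction. Of all genes listed, 35.3% lay above both WT libraries and 33.2% below both. Of 12 ES cell markers 0 rose and 5 fell (Sox2, Klf4, Tfcp2l1, Dppa5a and Fbxo15), with 0 higher and 6 lower at an unadjusted p under 0.05, and 9 of 12 lay below both WT libraries. DESeq2 called 0 of them higher and 1 lower, and 3 fell with the implied totals, which lost Sox2 and Dppa5a. Fibroblast markers, 16 of 18 in the table, summed to 1402 CPM in K3R3 and 1948 and 1771 CPM in WT, with Postn and Lum not among the rows. That sum is mostly Fn1, at 864 CPM in K3R3 and 1229 and 1197 CPM in WT, and most of the list went the other way. Of its 16 genes 10 lay above both WT libraries and 3 below both, Thy1 was called higher, and the median difference was 0.42 log2 units. Extraembryonic endoderm markers, 12 of 15 in the table, summed to 253 CPM in K3R3 and 527 and 449 CPM in WT, with 0 called higher and 4 lower (Cubn, Lama1, Col4a1 and Gata6), and Afp, Ttr and Cer1 not among the rows. With the implied totals 3 of them fell, which lost Gata6, and DESeq2 called 2. Neural markers, 9 of 12 in the table, summed to 126 CPM in K3R3 and 112 and 126 CPM in WT, with Zic1, which passed the filter only through K3R3, called higher and Otx2 lower, and Neurog1, Map2 and Dcx not among the rows. Muscle and endothelial markers, 9 of 12 in the table, summed to 66.7 CPM in K3R3 and 103 and 78.8 CPM in WT, with 0 called by edgeR (2 higher and 2 lower at an unadjusted p under 0.05) and 0 by DESeq2. The 2 higher, Myh6 and Cdh5, passed the filter only through K3R3, so their count is no result. Here too the sum and the genes differed. Pecam1 gave most of it, at 41.4 CPM in K3R3 and 71.8 and 60.02 CPM in WT, while 6 of the 9 genes lay above both WT libraries and 2 below both, and the 7 tested had a median of 0.48. The muscle genes Myod1, Myog and Actc1 were not among the rows.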

How the data were processed

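The authors deposited 1 table with whole-number read counts per gene, for which the submitters' processing notes name HTSeq 0.5.4p1 and genome mm9; aligner, annotation and strand setting are not given in the sources used here. RPKM values were deposited beside the counts, and each library's implied total was recovered from them. Per the file headers the ratio and log2 columns set K3R3 against WT, but by the values the deposited ratio, its log2 and the unadjusted p-value (DESeq 1.10.1 per the submitters' processing notes) are WT over K3R3. The class code comes from an earlier study per the file headers.

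Counts were TMM-scaled and tested with edgeR 4.0.16 in R 4.3.3 (quasi-likelihood test, two-sided, Benjamini-Hochberg over 13829 genes averaging at least 0.5 CPM). The spread came from the 2 WT libraries (1 residual degree of freedom), K3R3, with 1 library, is taken to vary as they do, and p-values rest on the trend of dispersion with expression. Counting intervals are exact 95% Poisson or conditional binomial intervals and cover counting error only. The WT replicates differed by more than counting noise (chi-square 24.3 per degree of freedom) and entered the tests as separate libraries. Their counts were summed for the ratios to pooled WT, and the intervals of those ratios leave that excess spread out. Differences against 1 replicate are log2 CPM with a prior count of 1. The members and lists were chosen with earlier results of these data known. All members are named; of each pathway list, called genes and, up to 4 in all, those with the largest differences and at least 20 counts, besides called markers and genes named as chosen later. Alternatives were DESeq2 1.42.0, its size factors, implied totals, other filters, the likelihood ratio test and leaving out each WT replicate. Promoters come from RefSeq (GRCm38.p6), and 7 of the 8 members had one.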

Additional observations from a re-analysis of the deposited data

How the results depend on the processing

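T was higher in K3R3 under every alternative tried, with log2 differences of 2.40 to 3.37, and was called by each edgeR setting but not by DESeq2 (adjusted p = 0.161). DESeq2 called 59 genes in place of 355, 33 higher and 26 lower, and 0 members. Library totals implied by RPKM gave 466 genes called higher in place of 280, and 1 member. The likelihood ratio test called 2 members, adding Mixl1 (adjusted p = 0.0398 by edgeR). Members above both WT libraries numbered 2 in place of 4 once a mean of at least 1 CPM was required, because Mixl1 and Lhx1 drop out. The members' median of 2.05 was 1.70 to 2.34 when either WT replicate was left out and 1.82 without Mixl1, an alternative chosen after seeing the data. With 1 WT library left, no residual degrees of freedom remain, so calls could not be repeated. No paired analysis was possible because the K3R3 library carries no replicate number. Depth limits Lhx1, with 4 counts or fewer per library.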
